A study of Homo sapiens with 8 samples.

Results

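Collagen chain genes were followed in A549-S3KO cells that carried either Smad3(RA/KP) or wild-type Smad3, with or without transforming growth factor-β (TGF-β). Members were picked by name alone, as every gene symbol built from COL, a number, A and a number, which gave 44 of the 30017 symbols in the expression tables. Expression was taken as TPM (transcripts in a library scaled to 1000000, a level corrected for transcript length and library size), and the records of a symbol were summed. Only COL11A2 had more than 1 record, namely 7. By class, the members were 11 fibrillar, 9 network, 5 beaded, 10 FACIT (fibril-associated collagens with interrupted triple helices) and 4 transmembrane genes. COL7A1 of the anchoring fibril, 2 multiplexin genes and 2 other genes made up the rest.

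The cells derive from A549, a human lung adenocarcinoma line, and their endogenous SMAD3 was disrupted by genome editing in all 4 groups. Lentiviral cDNA then supplied Smad3(RA/KP), with the substitutions R104K and A105P in the DNA-binding MH1 domain, or the wild-type protein. The 4 groups of 2 libraries each were Smad3(RA/KP) cells given TGF-β at 1 ng/ml and sampled after 8 h, untreated Smad3(RA/KP) cells, wild-type Smad3 cells given the same treatment, and untreated wild-type Smad3 cells. Infected cells were cloned, a low-expressing clone was picked for the wild-type form, and the clones sequenced are not named, so clone and mutation cannot be told apart. All cells were plated on collagen-coated dishes when TGF-β was added. The study sequenced the lines to ask how inactivation of Rac1, a GTPase of cell motility, is promoted in Smad3(RA/KP) cells.

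Across the libraries, an estimated 1.149 to 1.809 Gb of sequence was mapped, and SMAD3 had 137 to 187 TPM, a level that includes the introduced cDNA. Of 9 lung epithelial markers, the keratins KRT7, KRT8 and KRT18 had 2533 to 6862 TPM in the libraries. By contrast KRT19 and SFTPB were listed at 0 throughout. EPCAM, CDH1, MUC1 and NAPSA were low, with highest values in any library of 3.95, 10.3, 6.81 and 3.37 TPM. Of 9 fibroblast markers, DCN, MEOX2, FGF7 and DPT were listed at 0 in all libraries, and the whole list summed to 3.0 to 5.54 TPM in treated Smad3(RA/KP) cells and 4.78 to 6.84 TPM in the untreated ones. That sum was 1.14 to 1.69 TPM in treated and 2.07 to 4.48 TPM in untreated wild-type cells. Of 6 endothelial markers, 4 were listed at 0, PECAM1 and VWF among them, and the list summed to at most 0.459 TPM. Among immune markers, PTPRC, CD3E and CD163 were listed at 0, whereas CD68, a lysosomal protein of macrophages, had 51.0 to 104 TPM and CD14 had 4.10 to 13.5 TPM. The immune list summed to 69.8 and 97.4 TPM in treated against 64.6 and 70.1 TPM in untreated Smad3(RA/KP) cells (lower and higher library), and to 63.5 and 109 TPM in treated against 66.1 and 79.7 TPM in untreated wild-type cells. Its part in the results was not tested. The libraries differed in their relation to transcript GC content. Over 12426 genes, the deviation of a library from the mean of the 8 libraries had a Spearman coefficient with GC content of −0.65 in replicate 2 of untreated Smad3(RA/KP) cells and 0.19 in replicate 1. It was 0.37 and 0.49 in treated Smad3(RA/KP) cells, while the wild-type libraries had −0.14 to 0.01, as a description, since genes are not replicates. The difference of replicate 2 from replicate 1 had a coefficient of −0.58 in untreated Smad3(RA/KP) cells and of 0.10 to 0.22 in the other 3 groups.

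Collagens are trimers of α chains wound into a triple helix. Fibrillar chains form the banded fibers of stroma, type IV chains form the sheet of basement membranes on which epithelia rest, and type VI chains form beaded filaments that connect them. Collagen genes are classic targets of TGF-β, which signals through Smad2 and Smad3 and, in epithelial cells, promotes epithelial-mesenchymal transition.

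Some of these genes are arranged as pairs. COL4A1 and COL4A2 are transcribed away from each other on chromosome 13, with 134 bases between their records, and COL4A6 and COL4A5 are arranged in the same way on the X chromosome with 273 bases between them. Below, 4 stretches of RefSeq sequence (GRCh38.p14) are given. They precede COL4A1, COL4A2, COL5A1 and COL7A1, which were called higher with TGF-β in both lines, and COL4A6, which was called in neither. They are the stretch between the COL4A1 and COL4A2 starts (chr13:110307158-110307283, COL4A1 strand), and the 250 bases before the starts of COL4A6 (chrX:108439459-108439708, minus strand), COL5A1 (chr9:134641555-134641804, plus strand) and COL7A1 (chr3:48595330-48595579, minus strand). Capitals mark matches, on either strand, to CAGAC (the Smad-binding element), TGANTCA (the AP-1 site), GGGCGG (the Sp1 box) and TATAAA (the TATA box), and no matches overlapped in these stretches.
COL4A1-COL4A2: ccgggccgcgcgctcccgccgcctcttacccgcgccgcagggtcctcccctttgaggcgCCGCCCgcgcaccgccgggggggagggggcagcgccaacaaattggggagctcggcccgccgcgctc
COL4A6: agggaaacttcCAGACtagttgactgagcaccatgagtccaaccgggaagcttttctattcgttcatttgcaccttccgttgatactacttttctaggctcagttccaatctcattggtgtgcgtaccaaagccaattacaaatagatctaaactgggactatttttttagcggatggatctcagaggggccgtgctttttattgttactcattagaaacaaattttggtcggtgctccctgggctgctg
COL5A1: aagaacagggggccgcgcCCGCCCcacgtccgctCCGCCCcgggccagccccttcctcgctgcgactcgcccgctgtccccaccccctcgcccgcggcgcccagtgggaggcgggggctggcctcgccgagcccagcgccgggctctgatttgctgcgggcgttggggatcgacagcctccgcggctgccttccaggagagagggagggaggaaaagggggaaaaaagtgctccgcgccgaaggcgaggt
COL7A1: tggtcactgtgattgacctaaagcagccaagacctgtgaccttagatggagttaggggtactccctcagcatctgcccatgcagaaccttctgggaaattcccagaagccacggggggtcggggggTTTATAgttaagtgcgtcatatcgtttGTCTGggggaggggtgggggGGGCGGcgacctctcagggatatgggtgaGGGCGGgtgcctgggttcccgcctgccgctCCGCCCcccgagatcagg

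The stretch shared by COL4A1 and COL4A2 was 80.2% G and C and held 1 Sp1 box, whereas the COL4A6 stretch was 44% G and C and held 1 Smad-binding element. COL5A1 had 2 Sp1 boxes, and COL7A1 had 3 Sp1 boxes, 1 Smad-binding element 97 bases upstream and 1 TATA box match 124 bases upstream. The COL7A1 start of RefSeq lies 169 bases from the start of its record in the tables. In windows of 300 bases (250 before and 50 after a start), a window lay within 1000 bases of the record start for 32 members, 14 of them among the genes tested below. The Sp1 box was in the windows of all 5 members with a window that were called higher with TGF-β (COL4A1, COL4A2, COL5A1, COL7A1 and COL27A1) and in 4 of the 9 tested members called in neither line, against 45% of all 35116 windows. The Smad-binding element was in 1 of those 5 and 6 of those 9, against 45.3% of all windows. An AP-1 site was in none of these 14 windows, against 7.71% of all windows. The windows of COL4A1 and COL4A2 overlap, and these matches are a description of letters only.

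As a group, the collagen genes were expressed at a higher level with TGF-β in both lines. Their summed level was 1501 and 1530 TPM in treated Smad3(RA/KP) cells (replicates 1 and 2), against 539 and 543 TPM in untreated Smad3(RA/KP) cells. The sum was 1045 and 1313 TPM in treated against 435 and 561 TPM in untreated wild-type Smad3 cells. Thus all treated libraries lay above all untreated ones, and the ratio of the group means was 2.80 in Smad3(RA/KP) cells and 2.37 in wild-type cells. With the GC trend of each library removed, the ratios were 2.44 and 2.48, which turned the order of the lines. No test was made of this sum, since 2 against 2 libraries allow no exact p under 0.05. The collagen genes were also chosen as a set with earlier results of these data known, although the members were picked by name. Because these are bulk samples, a change in the number of expressing cells and a change in RNA per cell cannot be told apart.

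The same 9 genes were among the 10 most abundant in every library: COL7A1, COL5A1, COL5A2, COL4A1, COL4A2, COL18A1, COL6A1, COL6A2 and COL27A1. The top 10 held 93.1 to 97.3% of the summed TPM. The make-up of the sum differed with TGF-β. Fibrillar chains held 40.5 and 34.5% of it in treated against 25.7 and 23.2% in untreated Smad3(RA/KP) cells, and 42.8 and 36.0% in treated against 26.0 and 20.4% in untreated wild-type cells. The fibrillar sum itself was 4.39 and 4.19 times as high with TGF-β in the 2 replicates of Smad3(RA/KP) cells, and 3.95 and 4.14 times in wild-type cells. Network chains were 3.01 and 3.50 times as high in Smad3(RA/KP) cells and 2.98 and 3.44 times in wild-type cells. The other large classes moved less. For COL7A1 of the anchoring fibril the ratios were 2.86 and 2.46 (Smad3(RA/KP)) and 1.79 and 1.61 (wild type). They were 1.59 and 1.79 (Smad3(RA/KP)) and 1.08 and 1.31 (wild type) for the beaded chains. The multiplexins, which are nearly all COL18A1, had ratios of 1.29 and 1.67 (Smad3(RA/KP)) and 1.10 and 1.17 (wild type).

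Of the 44 genes, 19 had a mean of at least 1 TPM over the 8 libraries and were tested. Another 15 were listed at 0 in every library, and 10 were above 0 in at least 1 library but below the filter, with means of 0.00962 to 0.484 TPM and a highest value of 1.09 TPM. COL22A1 passed the filter only through its treated libraries, so the counts of genes called with TGF-β in the main fit are also given without it. The other counts and the medians keep it among the 19 genes. The test was limma on log2(TPM + 1), fitted to all 13141 genes above the filter with the replicate number as a block, and a gene was called at an adjusted p under 0.05. The p-values rest on the pooled spread between libraries within the 4 groups of 2, after a replicate shift common to all groups is removed. That spread was moderated by the spread of other genes. The fit left 3 residual degrees of freedom, and the other genes added 5.9.

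In Smad3(RA/KP) cells 9 of the 19 tested collagen genes rose with TGF-β, where 3.49% of all genes tested did, and none fell, where 1.5% of all genes did. In wild-type cells 8 of the 19 rose, against 2.94% of all genes, and none fell, against 1.74%. Without COL22A1 the counts were 8 and 7 of 18. The 8 genes were the same in each line, and 2.34% of all genes tested were higher in both. They were COL1A1, COL5A1, COL5A2 and COL27A1 (fibrillar), COL4A1 and COL4A2 (network), COL7A1 and COL22A1. The ninth, COL20A1, was called in Smad3(RA/KP) cells alone, but the difference between the lines was not called for it. The median log2 fold change of the 19 genes was 0.86 in Smad3(RA/KP) cells and 0.43 in wild-type cells, where the median of all genes tested was −0.10 and −0.06. With the GC trend of each library removed, these medians were 0.56 and 0.50 (−0.01 and −0.00045 over all genes), whereas the counts were again 9 and 8. Without the replicate block 8 and 6 genes were higher, against 1.63 and 1.51% of all genes. Within replicate 1, the level was higher with TGF-β for 15 of the 19 genes in Smad3(RA/KP) cells (54.4% of all genes tested) and for 12 in wild-type cells (38.8%). Within replicate 2 it was higher for 16 in Smad3(RA/KP) cells (37.1% of all genes) and for 14 in wild-type cells (46.2%). Both treated libraries were above both untreated ones for 11 genes in Smad3(RA/KP) cells (19% of all genes) and 10 in wild-type cells (17.8%), and below them for 1 (25.4%) and 2 (27.9%). COL22A1 is among the genes counted as higher in each of these comparisons, and it is in the medians.

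All 4 tested fibrillar genes rose in both lines. COL1A1, which encodes the α1 chain of type I collagen, the main fiber of bone, skin and scar, had 169 and 104 TPM in treated against 12.3 and 3.87 TPM in untreated Smad3(RA/KP) cells. Wild-type cells had 157 and 99.0 TPM when treated, against 10.5 and 6.17 TPM when untreated. Every treated library was above every untreated one, and replicate 1 was the higher in each of the 4 groups. The log2 fold change was 4.05 (SE 0.23, limma adjusted p = 0.000125) in Smad3(RA/KP) cells, rank 2 of the 13141 genes by size, and 3.79 (SE 0.23, adjusted p = 9.40e-05) in wild-type cells, rank 4. COL1A1 made up 11.3 and 6.80% of the collagen TPM in treated against 2.29 and 0.713% in untreated Smad3(RA/KP) cells, and 15 and 7.54% in treated against 2.41 and 1.10% in untreated wild-type cells. By contrast COL1A2, which encodes the α2 chain that joins COL1A1 products in the usual type I trimer, was listed at 0 in all 8 libraries. An exact 0 may be a failed estimate in these data, so absence of COL1A2 RNA is not shown.

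COL5A1 and COL5A2 encode the α1 and α2 chains of type V collagen, which is buried in type I fibrils and starts their assembly. COL5A1 had 261 and 262 TPM in treated against 54.7 and 44.3 TPM in untreated Smad3(RA/KP) cells, and 162 and 213 TPM in treated against 37.7 and 37.9 TPM in untreated wild-type cells. Treated and untreated libraries did not overlap, and COL5A1 was above COL5A2 only in the treated libraries. It rose by 2.39 on the log2 scale (SE 0.19, limma adjusted p = 0.000293) in Smad3(RA/KP) cells and by 2.27 (SE 0.19, adjusted p = 0.000353) in wild-type cells. COL5A2 had 139 and 117 TPM in treated against 58.1 and 65.1 TPM in untreated Smad3(RA/KP) cells, and 104 and 135 TPM in treated against 54.7 and 55.2 TPM in untreated wild-type cells. Again the groups did not overlap, at a smaller distance than for COL5A1. COL5A2 rose by 1.04 on the log2 scale (SE 0.18, limma adjusted p = 0.0138) in Smad3(RA/KP) cells and by 1.09 (SE 0.18, adjusted p = 0.0105) in wild-type cells. Its call in Smad3(RA/KP) cells was lost without treated replicate 1 (adjusted p = 0.113) or untreated replicate 2 (0.0511) of that line, and its wild-type call when any of the 4 libraries of that line was left out (0.0645 to 0.177). Both calls were lost without a filter on low values (0.0692 in Smad3(RA/KP) and 0.058 in wild-type cells). COL5A3, the third type V chain, stayed below 0.56 TPM in all libraries.

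COL27A1, a fibrillar chain best known from cartilage, had 37.5 and 44 TPM in treated against 12.6 and 12 TPM in untreated Smad3(RA/KP) cells. Treated wild-type cells had 24.1 and 25.3 TPM, against 9.01 and 14.4 TPM in untreated ones. The groups did not overlap in either line, and both treated Smad3(RA/KP) libraries were above both treated wild-type libraries. COL27A1 rose by 1.65 on the log2 scale (SE 0.21, limma adjusted p = 0.00343) in Smad3(RA/KP) cells and by 1.05 (SE 0.21, adjusted p = 0.0262) in wild-type cells. The call in Smad3(RA/KP) cells was lost without treated replicate 2 of that line (adjusted p = 0.0513). The wild-type call was lost when any of its 4 libraries was left out (0.0613 to 0.362), without the block (0.0661) and without a filter (0.0935). Of the other fibrillar genes, COL3A1, the partner of type I collagen in elastic tissues, stayed at or below 0.228 TPM, COL11A2 at or below 0.626 TPM, and COL2A1, COL11A1 and COL24A1 were listed at 0.

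Among network chains, the pair COL4A1 and COL4A2 rose and the pair COL4A5 and COL4A6 did not. COL4A1 and COL4A2 encode the α1 and α2 chains that make up most type IV collagen of basement membranes. COL4A1 had 169 and 166 TPM in treated against 37.1 and 35.5 TPM in untreated Smad3(RA/KP) cells, and 146 and 181 TPM in treated against 32.5 and 35.7 TPM in untreated wild-type cells. The groups were far apart, and the lines overlapped at each treatment. Its log2 fold change was 2.18 (SE 0.16, limma adjusted p = 0.000283) in Smad3(RA/KP) cells and 2.22 (SE 0.16, adjusted p = 0.000207) in wild-type cells. COL4A2 had 160 and 177 TPM in treated against 59.0 and 44.9 TPM in untreated Smad3(RA/KP) cells, and 124 and 167 TPM in treated against 46.5 and 51.0 TPM in untreated wild-type cells. These groups did not overlap either. The log2 fold change of COL4A2 was 1.69 (SE 0.20, limma adjusted p = 0.00247) in Smad3(RA/KP) cells and 1.54 (SE 0.20, adjusted p = 0.00342) in wild-type cells, the second being lost without treated wild-type replicate 2 (0.0728). Antisense records (COL4A2-AS1 and COL4A2-AS2) overlap COL4A2, and the use of strand in the counting is not stated in the sources.

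COL4A5 and COL4A6, the α5 and α6 chains found in basement membranes of smooth muscle and some epithelia, were expressed at a lower level. COL4A6 had 11.7 and 10.4 TPM in treated against 11.4 and 14.4 TPM in untreated Smad3(RA/KP) cells, and 6.76 and 8.82 TPM in treated against 8.41 and 11.6 TPM in untreated wild-type cells. COL4A5 had 6.37 and 6.91 TPM in treated against 7.57 and 7.91 TPM in untreated Smad3(RA/KP) cells, and 4.23 and 6.28 TPM in treated against 6.42 and 7.07 TPM in untreated wild-type cells. Treated COL4A5 libraries were thus below the untreated ones in each line, and the COL4A6 libraries overlapped in each. Neither gene was called. The log2 fold change of COL4A5 was −0.19 (95% interval −0.71 to 0.32) in Smad3(RA/KP) cells and −0.33 (−0.84 to 0.19) in wild-type cells, and that of COL4A6 was −0.21 (−0.71 to 0.30) and −0.32 (−0.82 to 0.19). The remaining type IV pair, COL4A3 and COL4A4 of the kidney and lung basement membrane, lay below 1 TPM throughout, and both type VIII genes, COL8A1 and COL8A2, and COL10A1 were at or below 0.0838 TPM.

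**Figure D1:**
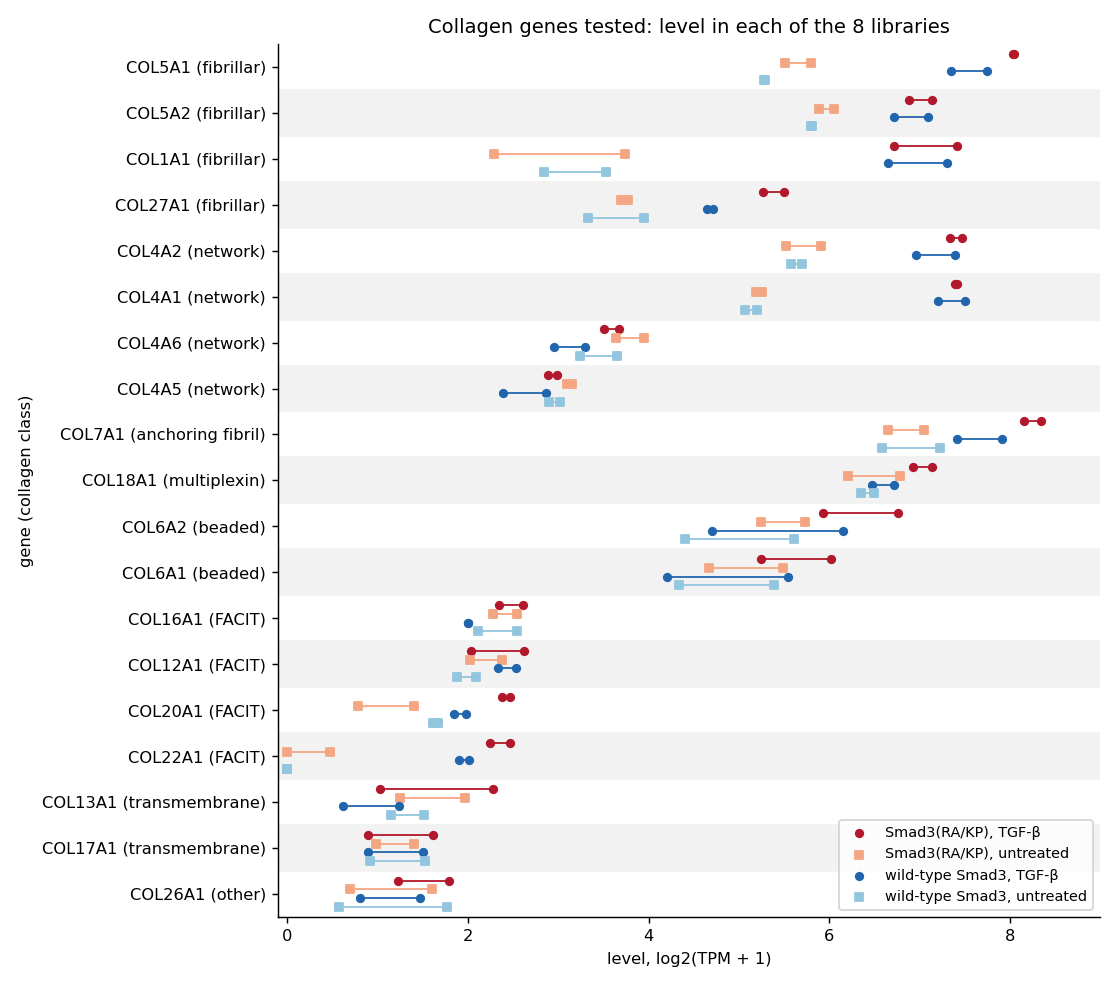
Level of the 19 tested collagen genes (vertical axis, grouped by class) in each of the 8 libraries, as log2(TPM + 1) (horizontal axis). Circles are treated and squares untreated libraries, and a line joins the 2 replicates of a group. COL1A1, COL5A1, COL4A1 and COL4A2 show treated libraries far to the right of untreated ones, whereas the beaded genes COL6A1 and COL6A2 spread by replicate.

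COL7A1 encodes the chain of anchoring fibrils, which tie the epithelial basement membrane to the stroma below, and had the highest mean TPM of the collagen genes in each of the 4 groups. It had 284 and 325 TPM in treated against 99.0 and 132 TPM in untreated Smad3(RA/KP) cells. Treated wild-type cells had 169 and 239 TPM, against 94.6 and 149 TPM in untreated ones. Treated and untreated libraries did not overlap in either line, replicate 2 was the higher in each group, and both treated Smad3(RA/KP) libraries were above both treated wild-type libraries. In Smad3(RA/KP) cells the log2 fold change was 1.4 (SE 0.16, limma adjusted p = 0.00201), and it was 0.76 (SE 0.16, adjusted p = 0.0331) in wild-type cells. The wild-type call was lost without the block (adjusted p = 0.258), without the mean-variance trend (0.0892), without a filter (0.0819) and when any of its 4 libraries was left out (0.148 to 0.425).

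The multiplexin COL18A1, a basement membrane collagen and the source of endostatin, was abundant but not called in either line. It had 140 and 121 TPM in treated against 109 and 72.6 TPM in untreated Smad3(RA/KP) cells, and 87.8 and 104 TPM in treated against 80.4 and 89.4 TPM in untreated wild-type cells. The groups did not overlap in Smad3(RA/KP) cells and overlapped in wild-type cells. The log2 fold change was 0.54 (95% interval 0.06 to 1.02, limma adjusted p = 0.187) and 0.17 (−0.31 to 0.65, adjusted p = 0.795), and the first was called only without untreated Smad3(RA/KP) replicate 1 (0.0267). Its share of the collagen TPM was 9.30 and 7.88% in treated against 20.2 and 13.4% in untreated Smad3(RA/KP) cells. Antisense records overlap COL18A1 as well. COL15A1, the other multiplexin, had 1.09 and 1.01 TPM in treated Smad3(RA/KP) cells, against 0.101 TPM and a listed 0 in untreated ones, and was above 0 in only 1 wild-type library, a treated one with 0.696 TPM.

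COL6A1 and COL6A2, which encode chains of type VI collagen, were called in neither line, and replicate 2 was the higher in every group. COL6A1 had 37.0 and 63.8 TPM in treated against 24.3 and 43.7 TPM in untreated Smad3(RA/KP) cells, and 17.4 and 45.5 TPM in treated against 19.2 and 40.8 TPM in untreated wild-type cells. COL6A2 had 60.1 and 107 TPM in treated against 36.8 and 51.9 TPM in untreated Smad3(RA/KP) cells, and 25.0 and 70.0 TPM in treated against 20.1 and 47.7 TPM in untreated wild-type cells. Replicate 2 was thus 1.41 to 2.79 times replicate 1 for COL6A2 and 1.73 to 2.61 times for COL6A1, and treated and untreated libraries overlapped except for COL6A2 in Smad3(RA/KP) cells. Replicate 2 was above replicate 1 in all 4 groups for 6 of the 19 tested genes, against 16.1% of all genes tested, and replicate 1 above replicate 2 for 2, against 9.66%. Neither passed the test: the log2 fold change of COL6A2 was 0.86 (95% interval 0.33 to 1.39, limma adjusted p = 0.0758) in Smad3(RA/KP) cells and 0.43 (−0.10 to 0.95, adjusted p = 0.433) in wild-type cells. The first was called at a mean of at least 5 TPM (0.0492) or without untreated Smad3(RA/KP) replicate 1 (0.0179). COL6A3, which encodes the α3 chain of the classic type VI trimer, was above 0 in only 1 library, at 0.340 TPM, and COL6A5 and COL6A6 were listed at 0.

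FACIT genes were expressed at a low level, with a class sum of 17.8 and 16.9 TPM in treated Smad3(RA/KP) cells, against 10.5 and 8.78 TPM in untreated ones. In treated wild-type cells the sum was 12.8 and 13.9 TPM, against 8.64 and 10.2 TPM in untreated ones. COL22A1, a FACIT known from tissue junctions such as that of muscle and tendon, had 3.75 and 4.53 TPM in treated Smad3(RA/KP) cells, against 0.383 TPM and a listed 0 in untreated ones. It had 2.73 and 3.04 TPM in treated wild-type cells and was listed at 0 in both untreated wild-type libraries. The 4 treated libraries therefore stood clear of the 4 untreated ones. Its fitted log2 differences, 2.12 (limma adjusted p = 0.00515) in Smad3(RA/KP) cells and 1.96 (adjusted p = 0.00707) in wild-type cells, depend on the pseudocount. The first call was lost without treated Smad3(RA/KP) replicate 2 (0.0699) and the second without either treated wild-type library (0.0995 and 0.121) or without untreated wild-type replicate 1 (0.0527).

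COL20A1, a FACIT whose function is little known, had 4.50 and 4.18 TPM in treated against 1.65 and 0.725 TPM in untreated Smad3(RA/KP) cells, and 2.95 and 2.59 TPM in treated against 2.06 and 2.17 TPM in untreated wild-type cells. Its groups did not overlap in either line, and replicate 2 of untreated Smad3(RA/KP) cells, with the GC coefficient of −0.65, was the lowest. Its log2 fold change was 1.32 (SE 0.28, limma adjusted p = 0.0305) in Smad3(RA/KP) cells and 0.28 (SE 0.28, adjusted p = 0.729) in wild-type cells. The call in Smad3(RA/KP) cells was lost without the block (0.0575), without a filter (0.086), without either treated library of either line (0.0844 to 0.196) and without untreated Smad3(RA/KP) replicate 2 (0.129). COL12A1 and COL16A1, which lie on the surface of fibrils, had 2.67 to 5.15 and 2.99 to 5.07 TPM across the libraries and were called in neither line, and the type IX genes, which encode a cartilage FACIT, were at or below 0.0770 TPM.

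The transmembrane genes COL13A1 (an adhesion protein of the neuromuscular junction) and COL17A1 (a hemidesmosome component of the epidermis), and COL26A1, were called in neither line. COL13A1 had 1.04 and 3.86 TPM in treated against 1.37 and 2.89 TPM in untreated Smad3(RA/KP) cells, and 0.534 and 1.35 TPM in treated against 1.21 and 1.85 TPM in untreated wild-type cells. COL17A1 was between 0.859 and 2.06 TPM. Replicate 2 was the higher in each group for COL13A1 and COL17A1, and replicate 1 for COL26A1. The other transmembrane genes, COL23A1 and COL25A1, were listed at 0.

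Of 4 pairs of partner chains, 2 had a ratio that was higher in all treated than in all untreated libraries. The ratio of COL5A1 to COL5A2 was 1.87 and 2.24 in treated against 0.941 and 0.681 in untreated Smad3(RA/KP) cells, and 1.56 and 1.58 in treated against 0.690 and 0.687 in untreated wild-type cells. The ratio of COL4A1 to COL4A2 was 1.06 and 0.942 in treated against 0.628 and 0.791 in untreated Smad3(RA/KP) cells, and 1.18 and 1.08 in treated against 0.700 and 0.700 in untreated wild-type cells. In both pairs all treated libraries lay above all untreated ones. By contrast the ratio of COL4A6 to COL4A5 overlapped between treatments in each line, within 1.31 to 1.83. The ratio of COL6A2 to COL6A1 was higher with TGF-β within each line but overlapped across the lines. It was 1.62 and 1.68 in treated against 1.51 and 1.19 in untreated Smad3(RA/KP) cells. In wild-type cells it was 1.44 and 1.54 in treated against 1.05 and 1.17 in untreated libraries. With 2 libraries against 2, these ratios are given without a test. TPM divides by transcript length, so a ratio compares the levels of transcripts.

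Smad3(RA/KP) and wild-type cells were then compared with each other. For the difference of the TGF-β responses, 0 of the 19 collagen genes were called by limma, where 0.0228% of all genes were, and 2 had an unadjusted p under 0.05, COL7A1 and COL20A1, where 4.29% of all genes did. The difference was 0.64 on the log2 scale for COL7A1 (95% interval 0.13 to 1.16, limma adjusted p = 0.881) and 1.04 for COL20A1 (0.16 to 1.93, adjusted p = 0.881). Differences for genes with the largest responses were 0.26 (−0.47 to 0.99) for COL1A1, 0.12 (−0.48 to 0.71) for COL5A1 and −0.04 (−0.56 to 0.48) for COL4A1, and differences within those intervals were not resolved. Over all genes the Spearman coefficient of this difference with GC content was 0.62, and the collagen transcripts had a median GC content of 61.3% against 48.8% for all genes tested. With the GC trend removed, the difference was 0.29 for COL7A1 and 0.76 for COL20A1. It was −0.03 for COL1A1, −0.14 for COL5A1 and −0.18 for COL4A1. The median difference of the 19 genes was 0.26 as measured and 0.02 with the GC trend removed (−0.02 and −0.008 over all genes).

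Between the lines with TGF-β, 0 of the 19 collagen genes were called, where 0.00761% of all genes were, while 6 had an unadjusted p under 0.05 in limma, all higher in Smad3(RA/KP) cells, where 4.95% of all genes were higher at that p. They were COL6A2, with a log2 difference of 0.92 (95% interval 0.39 to 1.45, limma adjusted p = 0.606), COL6A1 (0.76), COL13A1 (0.73), COL27A1 (0.70), COL7A1 (0.59) and COL5A1 (0.49). Both treated Smad3(RA/KP) libraries were above both treated wild-type libraries for 9 of the 19 genes, against 18.8% of all genes, and below for none, against 18.7%. In replicate 1 alone 18 of the 19 were higher in Smad3(RA/KP) cells, against 61.2% of all genes, and in replicate 2 alone 16, against 40.4%. The coefficient of this contrast with GC content over all genes was 0.54. With the GC trend removed, the differences were 0.59 for COL6A2, 0.49 for COL6A1, 0.73 for COL13A1, 0.48 for COL27A1, 0.29 for COL7A1 and 0.29 for COL5A1, and 0 were called. The part of GC content in these differences was not tested further.

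**Figure D2:**
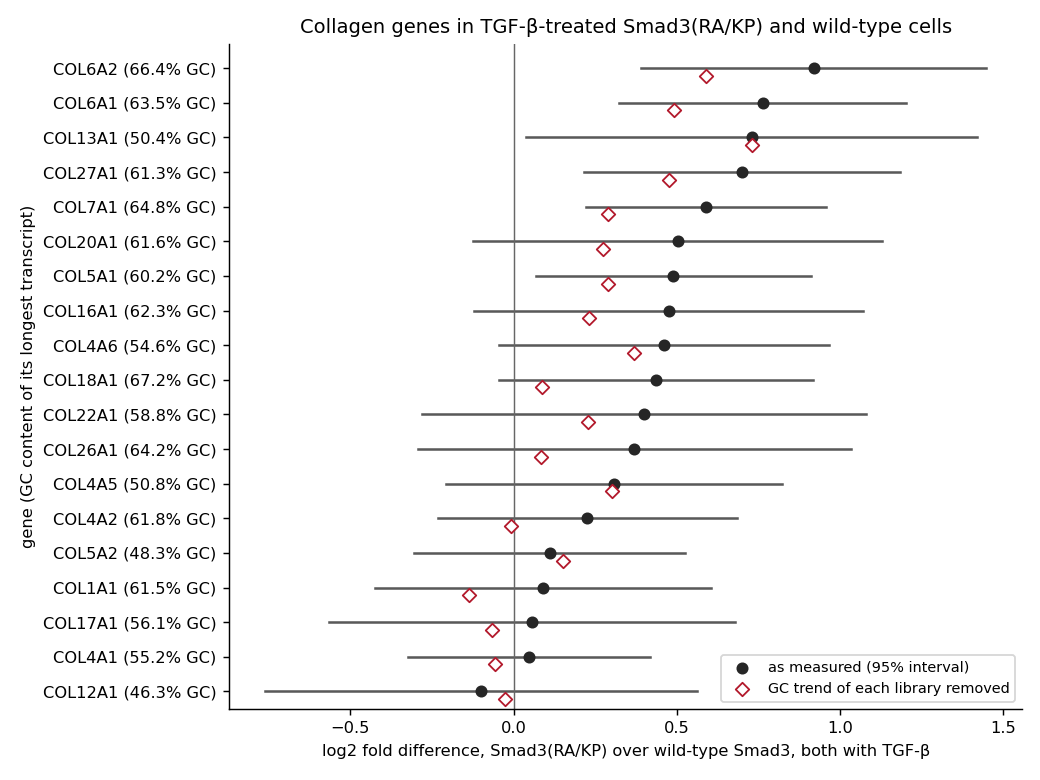
Log2 fold difference between treated Smad3(RA/KP) and treated wild-type cells (horizontal axis) for the 19 tested collagen genes (vertical axis, with the GC content of the longest transcript). Black points with 95% intervals are the values as measured, from 0.92 for COL6A2 to −0.10 for COL12A1, and open diamonds are the values with the GC trend of each library removed, which lie closer to 0 for most genes rich in G and C.

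The lines were also compared without TGF-β. None of the 19 genes was called by limma or had an unadjusted p under 0.05, where 0.0152% of all genes were called, and the median log2 difference was 0.10 (0.03 over all genes). The groups did not overlap for 3 genes that were higher in Smad3(RA/KP) cells (COL4A5, COL5A1 and COL5A2, against 10.1% of all genes) and for 1 that was lower (COL20A1, against 8.78%). Within replicate 1 alone 17 of the 19 were higher in Smad3(RA/KP) cells (43.6% of all genes), and within replicate 2 alone 9 were (59.1%). COL20A1 had a log2 difference of −0.54 (95% interval −1.17 to 0.08), and COL5A1 had 0.37 (−0.05 to 0.79).

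Genes that process, bind or degrade collagen were counted beside the chains. Over all genes tested, 3.49% rose and 1.5% fell in Smad3(RA/KP) cells, and 2.94% rose and 1.74% fell in wild-type cells. Of 36 genes for collagen synthesis and folding, 25 were tested and 2 rose in each line: P4HA3, a subunit of the prolyl hydroxylase that stabilizes the helix (1.76 and 1.95 on the log2 scale in Smad3(RA/KP) and wild-type cells), and BMP1, the protease that trims procollagen (1.21 and 0.91). SERPINH1, the collagen chaperone HSP47, had 122 and 150 TPM in treated against 169 and 133 TPM in untreated Smad3(RA/KP) cells, and 134 and 180 TPM in treated against 170 and 157 TPM in untreated wild-type cells, and was called in neither line. Of 12 receptors, 8 were tested and 4 rose in each line, among them the integrin chains ITGA2 (1.55 and 2.33) and ITGA11 (1.4 and 1.6), GPR56 (1.11 and 1.23) and MRC2, which takes up collagen fragments (0.97 and 0.90). Of 15 proteases and inhibitors of collagen breakdown, 11 were tested and 5 rose in each line, namely MMP1, MMP2, MMP9, TIMP2 and TIMP3. MMP1 had 0.197 to 0.802 TPM and TIMP3 0.189 to 0.439 TPM in untreated libraries. They passed the filter only through treated libraries, which favored a rise, and the counts and medians of this list include both. Apart from these, the genes of this list called higher in each line were MMP2, MMP9 and TIMP2. MMP2, a gelatinase, rose by 2.73 and 2.84 on the log2 scale, and TIMP3, a matrix-bound inhibitor, by 2.85 and 2.68. None of the genes of these lists was called lower, although some had negative values. Among receptors, GPR126 had −1.06 and −0.89 and ITGA10 −0.88 and −0.67 on the log2 scale in Smad3(RA/KP) and wild-type cells. The medians of the synthesis, receptor and degradation lists were 0.08, 0.81 and 1.01 in Smad3(RA/KP) cells and 0.20, 0.69 and 1.12 in wild-type cells, where those of all genes tested were −0.10 and −0.06.

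Of 13 proteins that bind collagen fibrils, 7 were tested and 2 rose in each line, TGFBI (2.17 and 2.48) and THBS1 (1.28 and 1.35), where 3.49 and 2.94% of all genes did. SPARC, a collagen-binding matricellular protein, was the gene of these lists that differed between the lines. It had 45 and 27.7 TPM in treated Smad3(RA/KP) cells, against 228 and 232 TPM in treated wild-type cells, and 35.1 and 23.5 TPM in untreated Smad3(RA/KP) cells, against 128 and 131 TPM in untreated wild-type cells. All Smad3(RA/KP) libraries were below all wild-type libraries. The log2 difference was −2.67 (SE 0.21, limma adjusted p = 0.00824) with TGF-β and −2.13 (SE 0.21, adjusted p = 0.0268) without it.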

How the data were processed

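Libraries were made from poly(A) RNA with an Ion Torrent kit. Per the labels and the methods, the authors' reads were aligned to GRCh38 by HISAT2 (2.1.0 in the submitters' processing notes), and StringTie (2.0.4) made 1 table per library, without assembly of new transcripts. The gene annotation is not stated in the sources. The deposited tables hold the base coverage, FPKM and TPM of 33122 records. The authors scaled TPM to 1000000 in every library, and FPKM to transcript length and mapped fragments. Mapped bases were found from coverage divided by FPKM in records of 10 FPKM or more. No read counts are given, so no counting intervals are shown, and an exact 0 may be a failed estimate.

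Records of a symbol were summed. The 13141 genes whose TPM averaged at least 1 were tested with limma 3.58.1 (R 4.3.3) on log2(TPM + 1), a scale that understates changes of low genes. The model held the 4 groups in 1 fit and the replicate number as a block. The spread was moderated along a trend with the mean, p-values were adjusted by Benjamini-Hochberg over all genes tested (threshold 0.05), and the fit left 3 residual degrees of freedom. The block follows the study's ratios within independent experiments. That equal numbers mark the same experiment is an assumption: deviations from group means correlated by 0.0484 to 0.332 between equally numbered libraries. The 5 contrasts were the response of each line, their difference, and the lines against each other with and without TGF-β. They share libraries and are not independent. GC content came from the longest GENCODE transcript and was found for 94.6% of tested genes. Promoter windows were RefSeq's. The fit was tested on simulated data. Python 3.11.15 and matplotlib 3.10.9 drew the figures.

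Named genes are members called in any contrast, members with a group mean of at least 5 TPM, and their partner chains. From each other list, up to 4 called genes with the largest change were named per TGF-β response. TIMP2, SERPINH1 and SPARC were named outside these rules. COL12A1, COL13A1, COL15A1, COL16A1, COL17A1, COL26A1, GPR126 and ITGA10 were named after their values were seen. The collagen set and the gene lists were chosen with earlier results of these data known. P3H1 to P3H4, ADGRG1 and ADGRG6 were matched under the older names used in the tables. Alternatives were 3 other pseudocounts, no filter or a mean of at least 5 TPM, scaling by median ratios or quantiles, FPKM values, no block, no trend, the largest record of a symbol, removal of the GC trend, and leaving out each library.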

Additional observations from a re-analysis of the deposited data

Results flagged for a closer look

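COL3A1, which encodes the chain of type III collagen, was below the filter on low values and moved in opposite directions in the lines. It had 0.0555 and 0.228 TPM in treated against 0 and 0.0897 TPM in untreated Smad3(RA/KP) cells, and 0.0531 and 0.0545 TPM in treated against 0.112 and 0.110 TPM in untreated wild-type cells. The mean change with TGF-β was 0.154 TPM greater in Smad3(RA/KP) than in wild-type cells. This difference was not tested, and the values are a small part of 1 TPM.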

How the results depend on the processing

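The count of collagen genes higher with TGF-β was 7 to 9 in Smad3(RA/KP) cells and 5 to 8 in wild-type cells over 12 settings, against 9 and 8 as reported. No called value changed sign in these settings or without any library, whereas values of genes not called did: those of COL16A1 and COL17A1 in Smad3(RA/KP) cells and of COL6A1, COL17A1 and COL26A1 in wild-type cells changed sign in at least 1 of the 12 settings. So did the difference of the responses for 8 of the 19 genes, and the difference between the lines for 4 with and 3 without TGF-β. Leaving out a library changed the sign of the response for 5 genes in Smad3(RA/KP) and 3 in wild-type cells. It did so for 10 genes in the difference of the responses, COL1A1, COL4A1 and COL5A1 among them. Between the lines, the sign changed for 6 genes with and 10 without TGF-β. The lowest count in wild-type cells, 5, came without a filter on low values, where 29 collagen genes entered. With no replicate block the counts were 8 and 6. The lowest pairing correlation of equally numbered libraries, 0.0484, was between treated and untreated Smad3(RA/KP) cells, so the pairing by number remains an assumption. Leaving out each library gave 6 to 11 and 3 to 8, with 3 without treated wild-type replicate 2, 4 without treated or untreated wild-type replicate 1 and 5 without untreated wild-type replicate 2. In these fits the lone library of a group was assumed to vary like the other groups. COL1A1, COL5A1 and COL4A1 kept their calls in both lines under all settings and without any library. No collagen gene was called for the difference of the responses or between the lines under any setting.

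The log2 ratio of summed collagen TPM with to without TGF-β was 1.49 in Smad3(RA/KP) cells and 1.24 in wild-type cells. It was 1.45 and 1.20 with FPKM, 1.58 and 1.31 with median-ratio scaling, and 1.29 and 1.31 with the GC trend removed. The order of the lines was thus not kept without the GC trend, and the cause was not tested. Leaving out a library gave 1.47 to 1.5 and 1.07 to 1.44. The deposited tables give no counts, and the highest mean base coverage in a library of any collagen gene below the filter was 0.916 and those genes were not tested.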

Other observations

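The replicates differed in the same way across groups for several collagen genes. Replicate 2 was the higher in all 4 groups for COL4A5, COL6A1, COL6A2, COL7A1, COL13A1 and COL17A1, and replicate 1 for COL1A1 and COL26A1. The ratio of replicate 2 to replicate 1 for COL13A1 was 3.70 in treated and 2.11 in untreated Smad3(RA/KP) cells, and 2.54 in treated and 1.53 in untreated wild-type cells. For COL17A1 it was 2.40 in treated and 1.69 in untreated Smad3(RA/KP) cells, and 2.12 in treated and 2.1 in untreated wild-type cells. For COL1A1 it was 0.614 in treated and 0.314 in untreated Smad3(RA/KP) cells, and 0.631 in treated and 0.588 in untreated wild-type cells, and for COL26A1 it ran from 0.20 to 0.542. Among genes of collagen breakdown, MMP1 had 4.19 and 14.8 TPM in treated against 0.476 and 0.716 TPM in untreated Smad3(RA/KP) cells, and 1.75 and 9.69 TPM in treated against 0.197 and 0.802 TPM in untreated wild-type cells. MMP9 had 3.54 and 12.4 TPM in treated against a listed 0 and 2.25 TPM in untreated Smad3(RA/KP) cells, and 2.12 and 12.3 TPM in treated against 0.459 and 2.01 TPM in untreated wild-type cells. Replicate 2 was the higher in every group for both.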
